A study of Mus musculus with 24 samples.

Results

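Loss of the chromatin remodeler BRG1 from liver endothelium was examined in 6 of the 24 RNA-Seq libraries of the study, namely 3 Brg1-ECko and 3 control libraries of liver sinusoidal endothelial cells (LSECs). They were chosen by their labels alone, the LSEC fraction of livers at embryonic day (E) 12.5 and the genotypes Brg1-ECko and Cre-. LSECs are the CD146+ cells that were pulled out of digested livers with magnetic beads, and the cells left behind are called non-EC cells. Brg1-ECko embryos carried VE-cadherin-Cre with both alleles of Brg1 floxed (fl/fl) and 1 allele of Chd4 floxed (fl/+). Control embryos were littermates without Cre that carried at least 1 floxed allele of Brg1 and of Chd4. For the same cells without CHD4, 3 Brg1/Chd4-ECdko libraries (Cre with both genes fl/fl) and 3 Chd4-ECko libraries (Cre with Chd4 fl/fl but Brg1 fl/+) were read. All embryos came from a mixed background, and all libraries carry the same batch label. VE-cadherin-Cre is active in endothelial cells and, per the study, in some blood cells of the fetal liver. Each replicate is 1 embryo per the study, and livers were digested with transcription inhibitors.

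BRG1, encoded by Smarca4, is the ATPase of many SWI/SNF (BAF) complexes, which slide or evict nucleosomes and keep enhancers and promoters accessible to transcription factors. CHD4 is the ATPase of the NuRD complex, which also carries histone deacetylases and is often linked to repression. LSECs line the liver sinusoids, take up waste molecules through scavenger receptors such as stabilin 2 and, in the fetal liver, lie between hepatoblasts and blood-forming cells.

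Values were TPM, transcripts scaled to the same total in every library, which hold no library size, so the depth behind them is unknown and no counting error can be given. Between 12746 and 13004 genes reached 1 TPM in the 6 libraries. On the log2 scale replicates correlated at 0.960 to 0.986 in Brg1-ECko LSECs and at 0.983 to 0.990 in controls. The LSEC markers Cdh5 (194 to 368 TPM), Stab2 (63.9 to 146 TPM) and Lyve1 (230 to 630 TPM) were far above their levels in the 6 non-EC libraries of the same genotypes, where the highest values were 13.2, 1.19 and 5.89 TPM. Markers of other cells were also present in the LSEC libraries, with Afp of hepatoblasts at 1267 to 12314 TPM, Csf1r of macrophages at 20.7 to 45.4 TPM, Pf4 of megakaryocytes at 115 to 389 TPM and Pdgfrb of stellate cells at 33.3 to 50.6 TPM.

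Brg1-ECko replicate 1 stood apart. The 31 hepatoblast genes of a fixed list took 39085 TPM in it (3.91% of the library), against 9153 and 9740 TPM in replicates 2 and 3 and 4912 to 9742 TPM in controls. Its Afp level was 12314 TPM and that of the next of the 6 libraries 2756 TPM. Results are therefore also given without it. Embryo sex was not balanced either. The Y-linked gene Eif2s3y had 33.1, 64.2 and 23.8 TPM in the controls, but 0.690 and 1.73 TPM in Brg1-ECko replicates 1 and 2 and 19.9 TPM in replicate 3. Hence only 1 Brg1-ECko library, and every control, carried Y-linked RNA at over 10 TPM, and the share of each result that goes with sex cannot be told apart from genotype by these 6 libraries alone. In a fit with Eif2s3y as a covariate no gene had an adjusted p under 0.05 (596 at an unadjusted p under 0.05), and the median log2 fold change of all tested genes moved from 0.08 to -0.03.

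Genotypes were compared in limma, with 1 fit to log2(TPM + 1) for the 12 LSEC libraries and 13444 genes that reached 1 TPM in 3 or more of them. Fold changes are on this scale, on which changes of low genes come out too small. A differentially expressed gene (DEG) needed an adjusted p under 0.05 and a log2 fold change over 1 or under -1. SE is the standard error of limma's log2 fold change, and the spread of TPM values is given as SD with n = 3.

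The deleted gene was read first. Smarca4 had 161, 144 and 134 TPM in controls and 157, 111 and 127 TPM in Brg1-ECko LSECs. The groups overlapped, and the log2 fold change was -0.16 ± 0.17 (SE; adjusted p = 0.779). Whole-gene TPM also count transcripts that lack only the floxed exons, so this value does not measure the deletion. Chd4 had 246 to 285 TPM in controls and 225 to 351 TPM in Brg1-ECko LSECs (adjusted p = 0.894).

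DEGs numbered 2, or 0.0149% of the genes tested, and 3 genes had an adjusted p under 0.05 (0.0223%). All 3 Brg1-ECko libraries lay above all 3 controls for 10.9% of the genes and below them for 3.71%. At an unadjusted p under 0.05 there were 1302 genes, 959 higher and 343 lower in Brg1-ECko LSECs. With quantile normalization the split was 587 higher and 767 lower. Of the 959 higher genes, 87.4% had a higher TPM in the non-EC fraction than in LSECs of controls, as did 53.1% of all tested genes. Of the 343 lower genes 4.37% did. Without Brg1-ECko replicate 1 these shares were 62.7% and 17.2%.

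**Figure D1:**
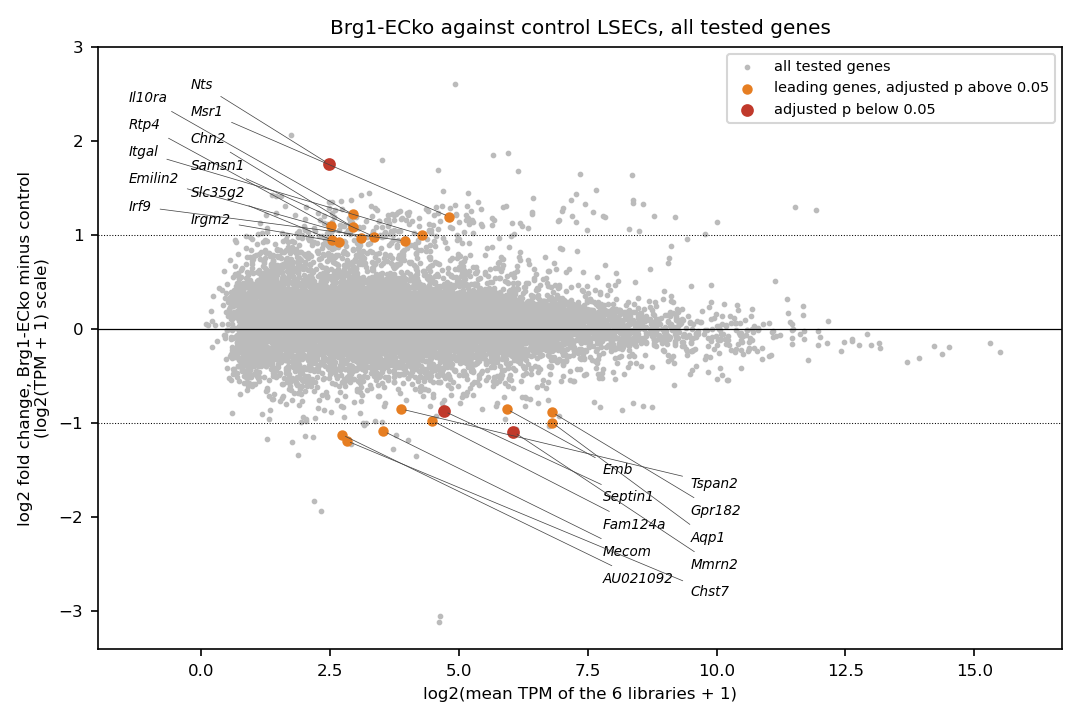
Log2 fold change of each tested gene in Brg1-ECko against control LSECs (vertical axis, log2(TPM + 1) scale) against its mean level in the 6 libraries (horizontal axis, log2(mean TPM + 1)). Red points are the 3 genes with an adjusted p under 0.05 and orange points the other named genes of the ranking, while dotted lines mark log2 fold changes of 1 and -1.

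Mmrn2 fell and Nts rose, and these were the 2 DEGs. Mmrn2 encodes multimerin 2, a glycoprotein of the endothelial extracellular matrix that binds CLEC14A, CD93 and CD248. Nts encodes neurotensin, a short secreted peptide of gut and nerve cells. Septin1, of a family of GTP-binding proteins that assemble into cytoskeletal filaments, also fell, by less than the fold change threshold.

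Mmrn2 (ENSMUSG00000041445, chr14:34097422-34126527 on the plus strand of GRCm39) had 86.8, 106 and 76.6 TPM in controls and 35.7, 38.2 and 51.5 TPM in Brg1-ECko LSECs. The groups did not overlap, and the mean moved from 89.8 ± 14.8 to 41.8 ± 8.5 TPM (log2 fold change -1.09 ± 0.16, adjusted p = 0.0472). Its level in non-EC cells was close to 0 in both genotypes, with means of 0.0822 TPM in controls and 0.150 TPM in Brg1-ECko embryos.

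Nts (ENSMUSG00000019890, chr10:102317614-102326396 on the minus strand) had 1.44, 1.99 and 1.02 TPM in controls and 4.63, 10.3 and 8.01 TPM in Brg1-ECko LSECs. Its mean rose from 1.48 ± 0.487 to 7.64 ± 2.85 TPM (1.76 ± 0.26, adjusted p = 0.0472), and its lowest Brg1-ECko value was that of replicate 1, the library rich in hepatoblast RNA. Without that library the log2 fold change was 2.04 (adjusted p = 0.00782).

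Septin1 (ENSMUSG00000000486, chr7:126812948-126832302 on the minus strand) had 32.9, 34.3 and 31.5 TPM in controls and 16, 17.0 and 19.8 TPM in Brg1-ECko LSECs (-0.87 ± 0.13, adjusted p = 0.0472). SDs within its groups were 1.37 TPM in controls and 1.94 TPM in Brg1-ECko LSECs.

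These adjusted p values lay just under the threshold and moved with single libraries and settings. Over the alternatives they ranged from 0.0131 to 0.587 for Mmrn2, from 0.00782 to 0.651 for Nts and from 0.0270 to 0.587 for Septin1. Without Brg1-ECko replicate 1 the adjusted p was 0.0729 for Mmrn2 and 0.0729 for Septin1. With any 1 control or Brg1-ECko replicate 2 left out, none of the 13444 genes was a DEG, while between 813 and 1891 had an unadjusted p under 0.05. The fold changes themselves moved little, between -1.25 and -0.97 for Mmrn2, between 1.54 and 2.26 for Nts and between -0.96 and -0.78 for Septin1, and with the sex covariate they were -1.08, 1.72 and -0.84.

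**Figure D2:**
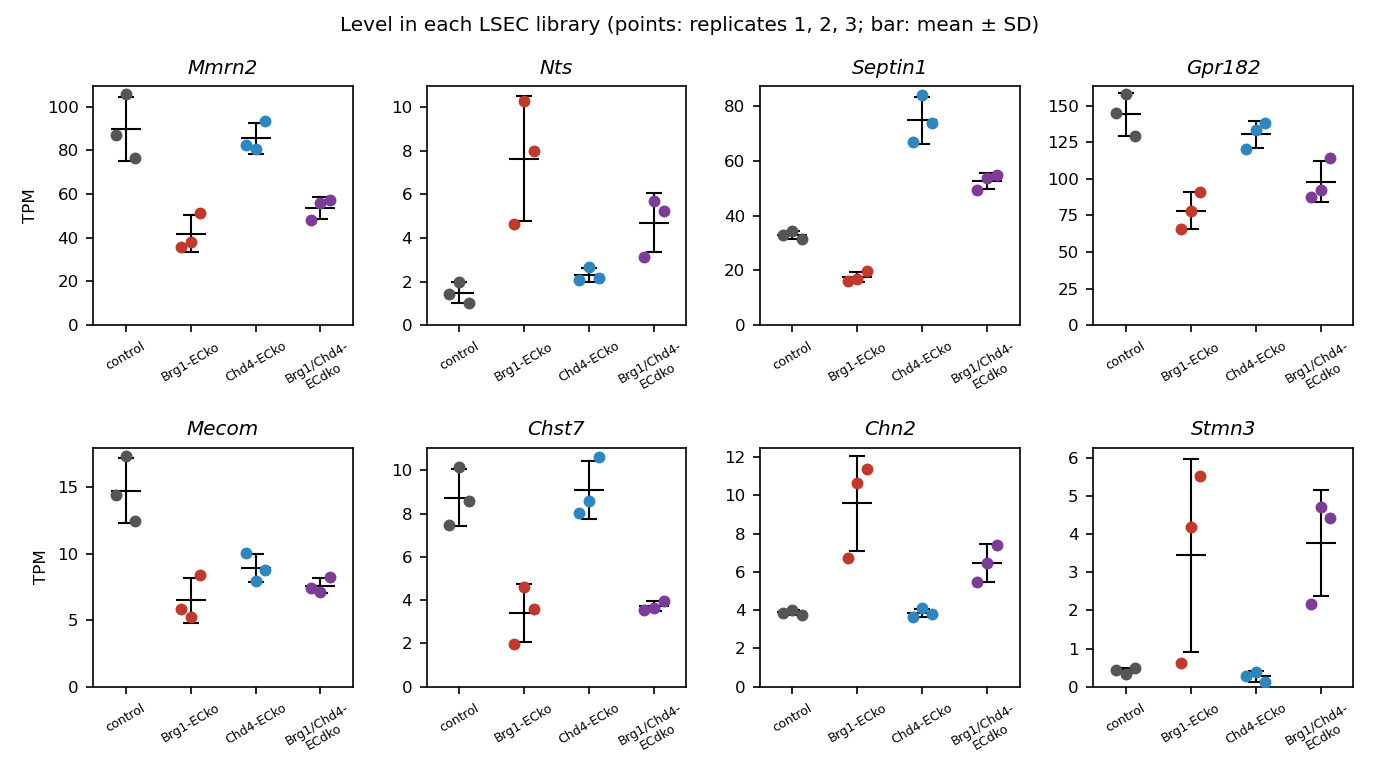
TPM of 8 named genes (vertical axes, linear from 0) in the 12 LSEC libraries, grouped by genotype, with points for replicates 1 to 3 from left to right and bars for mean ± SD. Mmrn2, Septin1, Gpr182, Mecom and Chst7 lie lower, and Nts, Chn2 and Stmn3 higher, in all 3 Brg1-ECko libraries than in the 3 controls.

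Promoter sequences show the stretch that lies before the start of genes that stood out. RefSeq promoters of GRCm38.p6, from 250 bases before to 50 after a transcription start, were matched by symbol for 13 of 21 genes, the 3 genes above, Gpr182, Mecom and the ranking described below. Short motifs of factor families that act in endothelium were searched on both strands of all 32544 promoters listed there. The ETS motif CCGGAA was held by 14.98% of them and the other ETS motif, AGGAAG, by 35.1%. The AP-1 motif TGANTCA was held by 7.79%, the GATA motif AGATAA by 11.2% and the KLF motif CACCC by 57.7%. Matches of different motifs may overlap. The 250 bases before the start of Nts (chr10:102490419-102490668, minus strand), the gene that rose, and of Fam124a (chr14:62555487-62555736, plus strand) and Chst7 (chrX:20059320-20059569, plus strand), leading genes among those with lower values, are printed 5′ to 3′ with matches in capitals.
Nts: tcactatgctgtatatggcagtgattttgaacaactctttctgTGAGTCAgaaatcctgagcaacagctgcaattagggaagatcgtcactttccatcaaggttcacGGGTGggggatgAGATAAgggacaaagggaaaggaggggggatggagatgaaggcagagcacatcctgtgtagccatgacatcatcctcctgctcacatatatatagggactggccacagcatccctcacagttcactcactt
Fam124a: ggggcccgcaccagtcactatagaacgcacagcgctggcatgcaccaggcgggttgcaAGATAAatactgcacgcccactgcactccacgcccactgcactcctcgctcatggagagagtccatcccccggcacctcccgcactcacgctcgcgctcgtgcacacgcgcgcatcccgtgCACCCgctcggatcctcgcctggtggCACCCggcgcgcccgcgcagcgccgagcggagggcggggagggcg
Chst7: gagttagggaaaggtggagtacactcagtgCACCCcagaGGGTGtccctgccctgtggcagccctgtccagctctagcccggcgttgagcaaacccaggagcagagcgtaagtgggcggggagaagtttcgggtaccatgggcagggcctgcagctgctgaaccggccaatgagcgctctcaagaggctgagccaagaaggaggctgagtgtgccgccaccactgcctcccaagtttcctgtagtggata
The Nts stretch held 1 AP-1, 1 GATA and 1 KLF match. That of Fam124a held 1 GATA and 2 KLF matches, and that of Chst7 held 2 KLF matches only. Neither start of Mecom had any of the 5 motifs in its window. Over the 8 matched promoters of lower genes, 6 (75.0%) held CACCC, 2 held AGGAAG, 1 held CCGGAA, 1 held AGATAA and 0 held TGANTCA. Over the 12 promoters of higher genes, 6 held CACCC, 6 held AGGAAG, 3 held AGATAA, 1 held CCGGAA and 1 held TGANTCA. A match is a description of letters and not a binding site.

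The ranking of genes with lower values in Brg1-ECko LSECs takes the 10 genes with the smallest p, a mean of at least 5 TPM and no overlap of groups, and apart from Septin1 and Mmrn2 none of them passed the test. Gpr182, an atypical chemokine receptor of sinusoidal endothelium, had 145, 158 and 129 TPM in controls and 65.6, 78.1 and 90.9 TPM in Brg1-ECko LSECs (-0.88 ± 0.15, adjusted p = 0.0818). Mecom, a zinc finger transcription factor of blood stem cells and endothelium, had 14.4, 17.4 and 12.5 TPM in controls and 5.85, 5.23 and 8.39 TPM in Brg1-ECko LSECs (-1.08 ± 0.18, adjusted p = 0.0823). For both genes every Brg1-ECko library was below every control, and the ratio of control to Brg1-ECko means was 1.85 for Gpr182 and 2.27 for Mecom. The adjusted p over the alternatives ran from 0.0307 to 0.651 for Gpr182 and from 0.0281 to 0.828 for Mecom.

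Chst7, a carbohydrate sulfotransferase, had 7.49, 10.1 and 8.60 TPM in controls and 1.98, 4.62 and 3.61 TPM in Brg1-ECko LSECs (-1.19 ± 0.22, adjusted p = 0.115). The water channel gene Aqp1 had 120 to 193 TPM in controls and 62.8 to 87.9 TPM in Brg1-ECko LSECs (-0.99 ± 0.19, adjusted p = 0.150). Emb, which encodes the membrane glycoprotein embigin, had 72.2 to 80.03 TPM against 35.9 to 46.7 TPM, and the tetraspanin gene Tspan2 16 to 19.1 against 7.88 to 12.0 TPM. Fam124a (26.1 to 29.995 against 12.3 to 17.7 TPM) and AU021092 (7.06 to 9.83 against 2.47 to 4.46 TPM) completed the ranking. The log2 fold changes of these 10 genes lay between -1.19 and -0.85, and without Brg1-ECko replicate 1 between -1.03 and -0.73. In non-EC cells of Brg1-ECko livers Aqp1 was lower too, with means of 13.9 TPM against 27.2 TPM in controls (limma, -1.15 ± 0.38, adjusted p = 0.0681). Its effect did not differ between fractions (interaction 0.16 ± 0.54, adjusted p = 0.909). Tspan2 (-0.48), Emb (-0.24) and Fam124a (-0.22) were also lower in that fraction, where Chst7 and AU021092 were near 0 TPM. In bulk libraries fewer cells of a type and less RNA per cell cannot be told apart.

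MMRN2 and its receptors were read together. Of 9 multimerins, EMILINs and MMRN2 partners, 7 had a log2 fold change below 0, 3 lay below all controls (Mmrn2, Clec14a and Cd93) and 1 above them (Emilin2), with a median of -0.13. Of all tested genes 65.2% were above 0, 3.71% lay below and 10.9% above all controls. With Brg1-ECko replicate 1 left out the median of the 9 was -0.05, with 4 above and 5 below 0. Cd93 had 93.8, 103 and 79.6 TPM in controls and 48.0, 49.1 and 71.0 TPM in Brg1-ECko LSECs (-0.73 ± 0.16, adjusted p = 0.187). Clec14a had 107, 132 and 88.0 TPM against 48.9, 79.7 and 87.5 TPM (-0.62 ± 0.23, adjusted p = 0.430), so that its highest Brg1-ECko library all but met its lowest control. Without Brg1-ECko replicate 1 the log2 fold change of Clec14a was -0.36. The third partner, Cd248, overlapped (58.5 to 70.3 against 40.8 to 72.6 TPM). The paralog Mmrn1 had 18.5 to 24.7 TPM in controls and 11.3 to 19.2 TPM in Brg1-ECko LSECs (-0.60 ± 0.20), with overlap. Emilin2, a matrix glycoprotein of the same family, had 4.06 to 5.96 TPM in controls and 8.54 to 12.1 TPM in Brg1-ECko LSECs, while Emilin1 differed by -0.04. The mean of Emilin2 was 36.9 TPM in control non-EC cells and 4.78 TPM in control LSECs. The part of other cell types in its higher values was not tested. The log2 fold change of Cd248 (-0.13) was 0.13 without Brg1-ECko replicate 1.

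Receptors and markers of sinusoidal endothelium had lower values as a list, and no member passed the test. Of 21 tested genes 18 had a log2 fold change below 0, with a median of -0.46 against 0.08 for all tested genes. Without overlap 12 lay below the controls and 1 above, where 3.71% and 10.9% of all genes did. Stab2, the hyaluronan scavenger receptor stabilin 2, had 135, 146 and 114 TPM in controls and 78.0, 63.9 and 93.1 TPM in Brg1-ECko LSECs (-0.75 ± 0.16, adjusted p = 0.182). Lyve1, another hyaluronan receptor, had 573, 630 and 432 TPM against 230, 334 and 359 TPM (-0.83 ± 0.18, adjusted p = 0.183). In both, no library of one group reached the other.

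Ehd3, of endocytic recycling, and Oit3 followed with log2 fold changes of -0.82 ± 0.18 and -0.78 ± 0.18. The mannose receptor Mrc1 had 193 to 225 TPM in controls and 123 to 172 TPM in Brg1-ECko LSECs. The secreted nuclease Dnase1l3 had 12.6, 14.6 and 5.99 TPM against 5.64, 3.01 and 5.67 TPM. Maf, a transcription factor of sinusoidal cells, had 117 to 127 against 69.6 to 116 TPM. Stab1, the other stabilin, overlapped (55.0 to 69.9 against 45.5 to 63.0 TPM, -0.32 ± 0.16). The member above all controls was Aass, an enzyme of lysine breakdown, whose 51.7 TPM in Brg1-ECko replicate 1 stood beside 11.2 and 12.2 TPM in the other 2. Its log2 fold change of 0.93 was -0.15 with the hepatoblast covariate, the level of the hepatoblast gene list in each library.

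Genes shared by all endothelial cells had a median like that of the sinusoidal ones. The 25 pan-endothelial markers had a median log2 fold change of -0.47, 23 of them were below 0, and 5 (Cldn5, Emcn, Egfl7, Robo4 and Cd34) lay below all controls. Of all tested genes 65.2% were above 0 and 3.71% lay below all controls. Cldn5, of tight junctions, had 136, 175 and 115 TPM in controls and 46.8, 76.0 and 87.6 TPM in Brg1-ECko LSECs (-1.03 ± 0.22, adjusted p = 0.173). Cdh5, which encodes VE-cadherin, had 362, 368 and 297 TPM against 194, 249 and 302 TPM, so that replicate 3 lay within the controls. Pecam1 (-0.19) and Tek (-0.34) overlapped as well, and with the hepatoblast covariate these were 0.05 and 0.08. Without Brg1-ECko replicate 1 the medians of both lists were -0.25, while Mmrn2 was at -0.99, Mecom at -1.03, Gpr182 at -0.76 and Stab2 at -0.76. The part that hepatoblast RNA of replicate 1 has in the endothelial values was not tested.

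Genes of Notch signaling and of arteries and veins had a median of -0.19, with 22 of 29 below 0 and 8 below all controls (Notch4, Dll4, Hey1, Gja4, Gja5, Bmx, Vegfc and Acvrl1), where 3.71% of all genes lay. Dll4, a Notch ligand of arterial and tip cells, had 24.2, 31.8 and 23.6 TPM in controls and 11.4, 16.4 and 16.3 TPM in Brg1-ECko LSECs (-0.82 ± 0.17, adjusted p = 0.169). The gap junction gene Gja5, of arterial endothelium, had 11, 25.9 and 17.4 TPM against 5.56, 6.78 and 10.3 TPM (-1.12 ± 0.30, adjusted p = 0.264). Notch4, a Notch receptor of endothelium, had 9.74 to 13.9 against 5.74 to 9.17 TPM. Without replicate 1 the median was -0.08 against 0.06 for all genes. In that setting 18 of the 29 genes were below 0 and 8 lay below all controls, as did 5.11% of all genes.

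**Figure D3:**
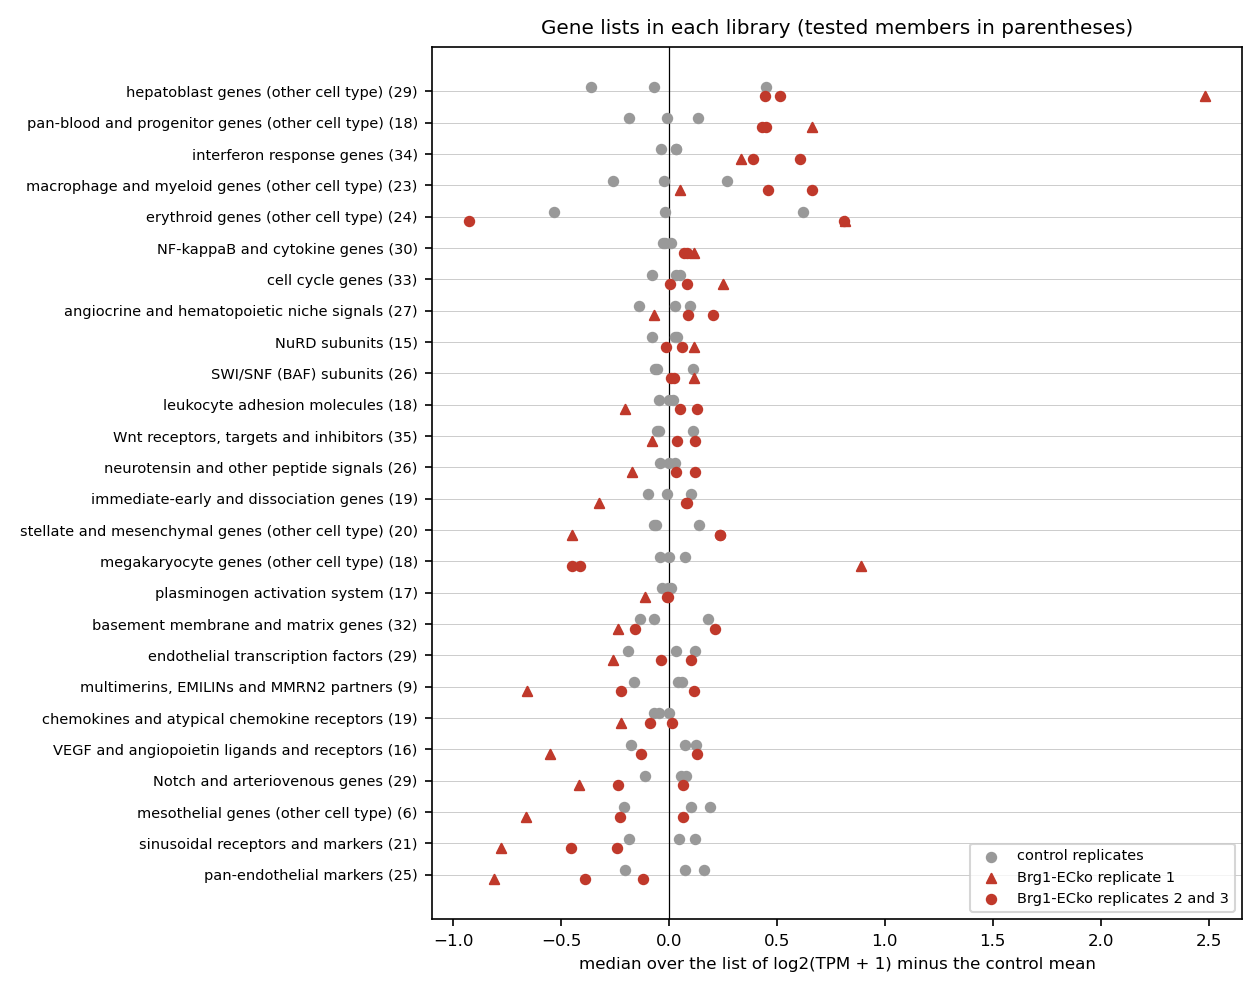
Median over each gene list of log2(TPM + 1) minus the control mean (horizontal axis) in each of the 6 libraries, with controls in grey, Brg1-ECko replicate 1 as a red triangle and replicates 2 and 3 as red circles. The sinusoidal list lies below the controls in all 3 Brg1-ECko libraries and the interferon list above them, whereas the hepatoblast list is highest in replicate 1 (2.48).

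Transcription factors of endothelium (29 tested) had a median of -0.08, which was 0.03 without Brg1-ECko replicate 1 and 0.09 with the hepatoblast covariate. Besides Mecom, 3 lay outside the controls, all above them, where 10.9% of all genes lay above. With Brg1-ECko replicate 1 left out there were 7 above and 1 below, where 15.9% and 5.11% of all genes lay. Hhex had a mean of 54.7 ± 7.24 TPM in controls and 75.4 ± 19.2 TPM in Brg1-ECko LSECs (0.44 ± 0.17, adjusted p = 0.442). Prox1, which hepatoblasts also express, had 3.73 to 6.18 TPM in controls and 39.5, 6.38 and 7.39 TPM in Brg1-ECko replicates 1, 2 and 3, and its log2 fold change of 1.21 was -0.00896 with the hepatoblast covariate. Ets1 overlapped (225 to 272 against 138 to 244 TPM).

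None of the 10 leading genes with higher values in Brg1-ECko LSECs passed the test, with adjusted p between 0.102 and 0.182. Chn2, a GTPase-activating protein for Rac, had 3.87, 4.03 and 3.77 TPM in controls and 6.73, 10.7 and 11.4 TPM in Brg1-ECko LSECs (1.08 ± 0.19, adjusted p = 0.102). Il10ra, the receptor for interleukin 10, had 3.98, 3.03 and 3.84 TPM against 10.9, 10.5 and 7.94 TPM (1.22 ± 0.22, adjusted p = 0.115). Itgal, the integrin CD11a of leukocytes, had 10.2 to 13.7 against 23 to 26.9 TPM, and Msr1, a macrophage scavenger receptor, 12.2 to 19.97 against 32.7 to 46.9 TPM. Samsn1, an adapter of blood cells, had 5.11 to 6.67 against 10.2 to 17.4 TPM. Slc35g2, a predicted transporter, had 2.40 to 3.81 against 5.76 to 7.91 TPM.

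Interferon response genes were the list with the most members above the controls. Of 34 tested genes 29 had a log2 fold change above 0, 19 lay above all controls and 0 below them, with a median of 0.43. Of all tested genes 65.2% were above 0 and 10.9% lay above all controls. None of the 34 had an adjusted p under 0.05. The rise was not particular to Brg1-ECko LSECs. Library medians relative to the control mean were 0.33 to 0.61 in Brg1-ECko, 0.33 to 0.51 in Chd4-ECko and 0.38 to 0.81 in Brg1/Chd4-ECdko LSECs. The list lay higher in the non-EC cells of Brg1-ECko livers too, where its median was 0.39 and 28 genes were above 0, against a median of 0.02 and 53.1% of all genes. In that fraction Usp18, a protease that removes ISG15 from proteins, was higher by 1.20 on the log2 scale (adjusted p = 0.00478). Rtp4, an interferon-induced chaperone of receptors, had 3.30, 2.39 and 2.26 TPM in controls and 5.82, 7.64 and 6.84 TPM in Brg1-ECko LSECs (1.09 ± 0.22, adjusted p = 0.159). Irf9, the DNA-binding subunit of the ISGF3 factor, had 9.75, 8.77 and 10.2 TPM against 22.3, 19.3 and 16.6 TPM (0.94 ± 0.20, adjusted p = 0.173). Stat2, another subunit of that factor, did not overlap either (7.37 to 8.22 against 8.34 to 17.8 TPM).

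Isg15, a ubiquitin-like interferon product, had 2.56, 1.49 and 3.62 TPM in controls and 4.81, 9.61 and 8.19 TPM in Brg1-ECko LSECs. Irgm2, an interferon-induced GTPase, had 3.15 to 3.76 against 6.15 to 8.07 TPM, and Irf7 3.25 to 4.26 against 7.64 to 11.7 TPM. Other classical targets did not stand apart, such as Ifit1 (0.15) and Ifit3 (0.24), whose sign changed with 1 library left out. Without Brg1-ECko replicate 1 the median of the list was 0.49, and with the sex covariate 0.38.

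**Figure D4:**
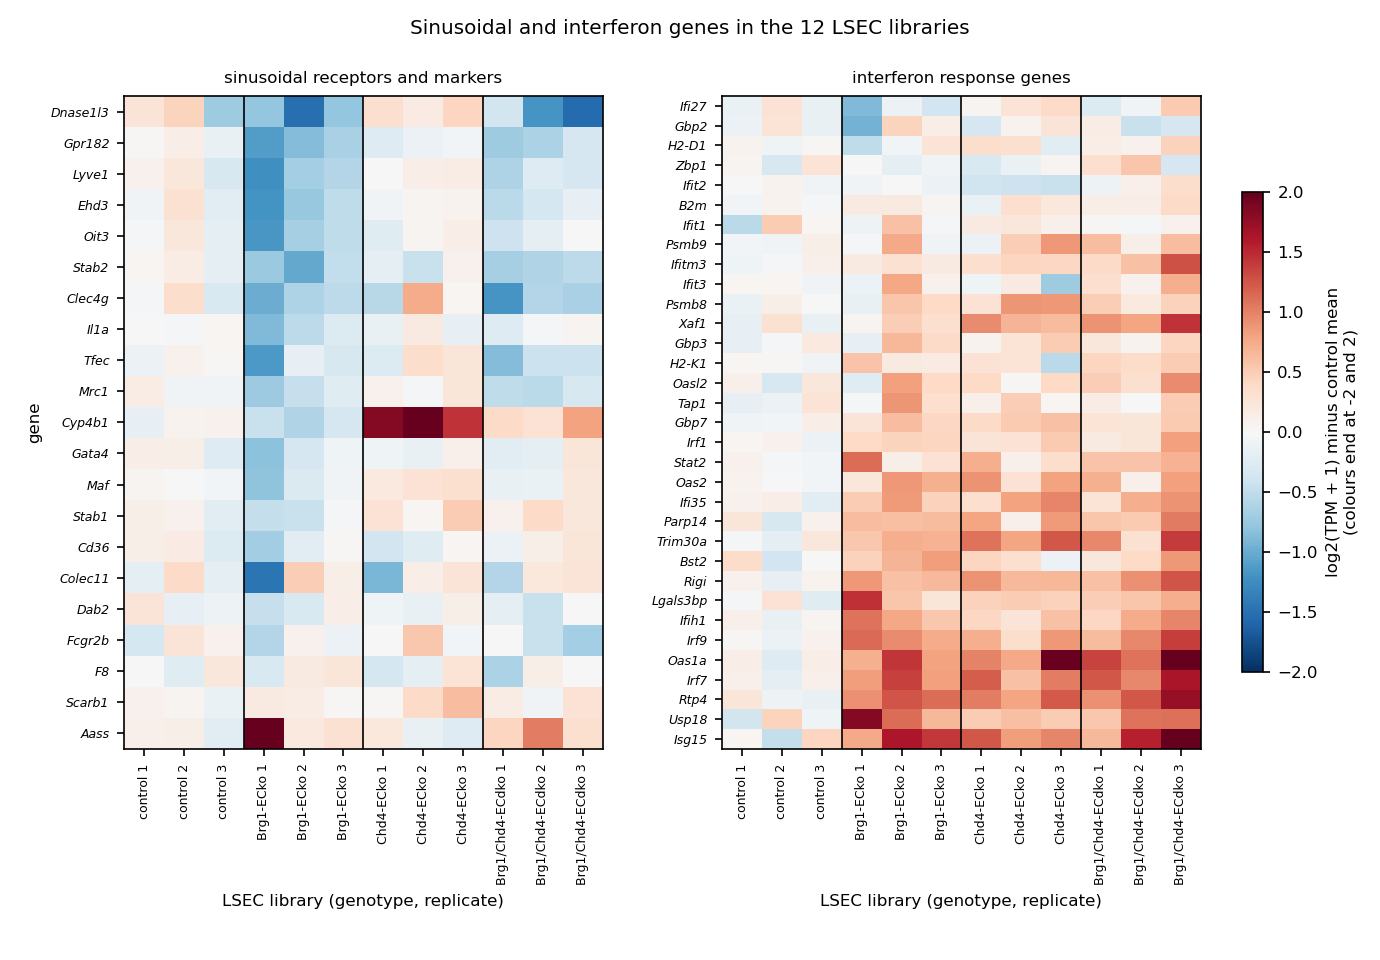
Log2(TPM + 1) minus the control mean for the tested genes of the sinusoidal and the interferon list, 1 interferon gene left out (rows, ordered by log2 fold change) in the 12 LSEC libraries (columns, by genotype and replicate); blue is lower and red higher than the control mean, and colours end at -2 and 2. Isg15, Usp18 and Rtp4 are red, and Gpr182 and Stab2 blue, in the 3 Brg1-ECko columns. Isg15, Usp18 and Rtp4 also lie above every control in the Chd4-ECko and Brg1/Chd4-ECdko columns.

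Genes of hepatoblasts, myeloid cells and blood cells in general had higher medians in Brg1-ECko LSECs. Lists of genes of other cell types are read beside the 65.2% above 0 and the 10.9% above all controls among all tested genes. Of 29 tested hepatoblast genes all had a log2 fold change above 0 (median 1.14) and 15 lay above all controls. Without replicate 1 their median was 0.50. Of 23 macrophage and myeloid genes 20 were above 0 (median 0.40) and 7 lay above all controls, Adgre1, Csf1r, Spi1, Cx3cr1, Fcer1g, Cd14 and Clec4f. Without replicate 1 their median was 0.56, 22 were above 0 and 14 lay above all controls, where 15.9% of all genes did. The sum of the 25 myeloid genes in the table was 1146 to 1514 TPM in controls and 1151 to 1823 TPM in Brg1-ECko LSECs. Csf1r, the receptor that macrophages need for survival, had a mean of 23.7 ± 2.61 TPM in controls and 38.4 ± 7.02 TPM in Brg1-ECko LSECs. Of 18 pan-blood genes 17 were above 0 (median 0.55) and 6 lay above all controls, with Ptprc, which encodes CD45, at 5.26 to 8.38 against 11.3 to 13.2 TPM. The part of blood and hepatoblast RNA in the higher genes, Il10ra, Itgal and Msr1 among them, was not tested.

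Erythroid genes (24 tested, median 0.20) and megakaryocyte genes (18, median -0.04) ranged widely between libraries. The erythroid median was below 0 without replicate 1 (-0.055, with 8 above and 16 below 0), with the sex covariate (-0.14) and with the hepatoblast covariate (-0.25). The megakaryocyte genes had a median of -0.49 without replicate 1, whose Pf4 was 389 TPM against 115 to 193 TPM in the other 5. In that setting 10 of the 18 lay below all controls and 1 above, where 5.11% and 15.9% of all genes lay. Stellate genes (20, median -0.02) and mesothelial genes (6, median -0.24) had 1 member each outside the controls, Reln above and Krt19 below them. Without replicate 1 the stellate list had a median of 0.20, with 17 above 0, 7 above all controls and 1 below them, and the mesothelial median was -0.08.

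Without Brg1-ECko replicate 1 the DEGs were Nts, Chn2 and Stmn3, all higher. Stmn3, of the stathmins that bind tubulin, had 0.432, 0.345 and 0.498 TPM in controls and 0.620, 4.20 and 5.52 TPM in Brg1-ECko replicates 1, 2 and 3. It passed the filter of 1 TPM in 3 libraries only through Brg1-ECko and Brg1/Chd4-ECdko libraries, so that its call depends on a filter that the difference itself decides. With all libraries its log2 fold change was 1.42 ± 0.40 (adjusted p = 0.293), and without replicate 1 it was 2.03 ± 0.26 (adjusted p = 0.00837). Chn2 had a log2 fold change of 1.30 without replicate 1 (adjusted p = 0.00952). Among Brg1-ECko libraries both Stmn3 and Chn2 were lowest in the library with the most hepatoblast RNA. With the sex covariate added to this fit no gene had an adjusted p under 0.05 (693 at an unadjusted p under 0.05), and Nts was at 1.92 (adjusted p = 0.106). Over the alternatives the adjusted p ran from 0.00952 to 0.682 for Chn2 and from 0.00837 to 0.938 for Stmn3.

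Peptides, chemokines and their receptors showed Nts as the one gene past the test. Of 26 peptide signals 15 were above 0, with Nts above all controls and Apela, Ece1, Ramp3 and Npr1 below them, where 10.9% and 3.71% of all genes lay. Apela, a ligand of the apelin receptor, had 5.87, 3.00 and 6.91 TPM in controls and 2.67, 2.11 and 2.36 TPM in Brg1-ECko LSECs (-0.83 ± 0.28, adjusted p = 0.409). Npr1, a natriuretic peptide receptor, had means of 59.4 and 39.7 TPM. Of 19 chemokine genes 5 lay above all controls and 2 below, to be read against the same shares. Ackr1, an atypical receptor that binds chemokines as Gpr182 does, had 10.3, 12.9 and 8.98 TPM in controls and 5.32, 3.5 and 5.88 TPM in Brg1-ECko LSECs (-1.0 ± 0.26, adjusted p = 0.250). Cxcl10, an interferon-induced chemokine, had 1.12 to 3.01 against 3.92 to 5.84 TPM.

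Genes of plasminogen activation, leukocyte adhesion and inflammation held no member past the test. Plaur, the receptor of urokinase, had 5.65, 7.67 and 8.08 TPM in controls and 6.27, 5.62 and 6.38 TPM in Brg1-ECko LSECs (-0.19 ± 0.17, adjusted p = 0.743). Of the 17 genes of plasminogen activation 1 lay outside the controls, Plg, with 553 TPM in replicate 1 and 113 and 130 TPM in the other 2 against 57.5 to 110 TPM in controls. The log2 fold change of Plg, 1.33, was 0.05 with the hepatoblast covariate, and its mean in control non-EC cells was 354 TPM. Plau had means of 33.5 TPM in both groups. Icam1, an adhesion molecule for leukocytes, had 38.9, 42.5 and 35.4 TPM in controls and 33.0, 32.0 and 32.3 TPM in Brg1-ECko LSECs (-0.25 ± 0.13, adjusted p = 0.548), without overlap. Vcam1 overlapped at 57.4 to 68.7 against 67.8 to 79.2 TPM.

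The cytokine gene Tnf was low in both groups, with 0.638 to 1.99 TPM in controls and 0.258 to 1.03 TPM in Brg1-ECko LSECs (-0.48 ± 0.25, adjusted p = 0.572). Il1b had 0.483 to 1.86 TPM over the 6 libraries and Il6 at most 0.215 TPM, so that Il6 was not tested. Rela, which encodes NF-kappaB p65, differed by 0.16 ± 0.13. Of 30 NF-kappaB and cytokine genes 7 lay above all controls and 1 below (median 0.18), where 10.9% and 3.71% of all genes did. This median was 0.095 without Brg1-ECko replicate 1, 0.041 with the sex covariate and 0.0092 with both. Tnfaip2, with the largest of these changes over all libraries, had 21.8 to 26.6 against 27.9 to 60.2 TPM. Its log2 fold change of 0.72 was 0.45 without Brg1-ECko replicate 1, where Tnfrsf1b of the same list was at 0.73. Among 18 adhesion molecules Itga4 and Itgal lay above the controls and Icam1 and Jam2 below them, against the same shares of all genes.

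The remaining lists had medians between -0.18 and 0.10 and no member past the test. They comprise 26 SWI/SNF subunits (0.05), 15 NuRD subunits (0.07), 35 Wnt genes (0.03), 16 VEGF and angiopoietin genes (-0.18), 27 angiocrine signals (0.07), 32 matrix genes (-0.08), 33 cell cycle genes (0.10) and 19 immediate-early genes (-0.02). Of these medians, those of the SWI/SNF, NuRD, Wnt, angiocrine and cell cycle lists were below 0 with the sex covariate. The medians of the VEGF, matrix and immediate-early lists were each 0.04 without Brg1-ECko replicate 1, and with the hepatoblast covariate they were 0.12, 0.07 and 0.13. Smarce1, a SWI/SNF subunit, had 286 to 307 TPM in controls and 245 to 286 TPM in Brg1-ECko LSECs (-0.15 ± 0.12). In the matrix list Sparc and Mmp14 lay below all controls, and in the angiocrine list Kitl, Thpo, Dlk1 and Fgf1 lay above them. These are 2 of 32 and 4 of 27 genes, where 3.71% of all genes lay below and 10.9% above all controls. Thpo, at 0.311 to 0.647 TPM in controls, reached 1 TPM only in Brg1-ECko and Brg1/Chd4-ECdko libraries. Its place in this count therefore depends on a filter that the difference itself decides. Dlk1, which is also on the hepatoblast list, had 248 to 298 TPM in controls and 546, 329 and 345 TPM in Brg1-ECko replicates 1, 2 and 3. Its log2 fold change of 0.50 was 0.18 with the hepatoblast covariate.

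A second Brg1 contrast was read in 6 libraries that the first did not use, Brg1/Chd4-ECdko (Brg1 fl/fl) against Chd4-ECko (Brg1 fl/+) LSECs, with Cre and Chd4 fl/fl in both. It is not the same comparison, since Brg1-ECko embryos also differ from their controls by Cre, with 1 allele of Chd4 floxed. Smarca4 had 99.9 to 141 TPM in Chd4-ECko and 117 to 151 TPM in Brg1/Chd4-ECdko LSECs (0.07 ± 0.17, adjusted p = 0.870). All 10 leading lower genes also had lower means there, 8 of them without overlap, with a median log2 fold change of -0.58. Of all genes with a lower value in Brg1-ECko LSECs 38.4% were lower there too, and 2.25% of all tested genes lay below without overlap. Of the 343 genes lower at an unadjusted p under 0.05, a set closer to the ranking, 75.5% were lower there too, 83 of them without overlap. Of the 10 leading higher genes 7 were higher there, 3 without overlap, with a median of 0.17. For all genes with a higher value this share was 79.4%, and 13.6% of all genes lay above without overlap. Of the 959 genes higher at an unadjusted p under 0.05, 79.4% were higher there too, 292 of them without overlap. In this contrast 5 genes (0.0372%) had an adjusted p under 0.05, none of them among the leading or marker genes. Most of the leading higher genes were already above all controls in every Chd4-ECko library, where Brg1 is fl/+. These were Itgal (27.9 to 44.4 TPM), Msr1 (37.5 to 78.1 TPM), Samsn1, Emilin2, Il10ra, Rtp4, Irgm2 and Irf9, whereas Chn2 and Slc35g2 overlapped with controls. Across all 13444 genes the log2 fold changes of both contrasts had a Pearson correlation of 0.23 (0.21 without Brg1-ECko replicate 1), a description over genes that are not independent.

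Mmrn2 had 82.3, 80.5 and 93.4 TPM in Chd4-ECko LSECs and 48.1, 55.8 and 57.5 TPM in Brg1/Chd4-ECdko LSECs (-0.66 ± 0.16, adjusted p = 0.331). Chst7 had 8.05, 8.59 and 10.6 TPM against 3.56, 3.64 and 3.98 TPM (-1.09 ± 0.22, adjusted p = 0.204). Gpr182 had 120 to 138 TPM against 87.8 to 114 TPM. For these genes no library of one genotype reached the other. Mecom was already at 7.94 to 10.04 TPM in Chd4-ECko LSECs and had 7.11 to 8.22 TPM in Brg1/Chd4-ECdko LSECs, with overlap. Septin1 had 66.9 to 83.8 TPM in Chd4-ECko LSECs, above the 31.5 to 34.3 TPM of controls, and 49.4 to 54.8 TPM in Brg1/Chd4-ECdko LSECs.

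In Chd4-ECko libraries Nts had 2.07, 2.65 and 2.18 TPM, and 3.15, 5.71 and 5.22 TPM were found for Brg1/Chd4-ECdko (0.76 ± 0.26, adjusted p = 0.459). Stmn3 had 0.284, 0.397 and 0.120 TPM against 2.16, 4.71 and 4.41 TPM (1.87 ± 0.40, adjusted p = 0.315), and Chn2 3.66 to 4.10 against 5.47 to 7.43 TPM. Nts and Chn2 thus lay higher without overlap in the second pair of genotypes, and the values of Stmn3, which was tested only through the libraries where it is high, are given as a description. Sex was unbalanced here too, since Chd4-ECko replicates 1 and 2 and Brg1/Chd4-ECdko replicate 1 carried Y-linked RNA and the other 3 libraries did not. Of the lists, the sinusoidal one had a median of -0.28, with 9 of 21 genes lower without overlap, and the pan-endothelial one -0.04, with 5 of 25, where 2.25% of all genes did so. The median of all tested genes was 0.13. All 29 hepatoblast genes were above 0 (median 0.55), 13 of them without overlap. All 24 erythroid genes were below 0 (median -0.47). The part of other cell types in the sinusoidal values was not tested. The interferon list had a median of 0.20, but only 2 of its 34 genes lay higher without overlap, where 13.6% of all genes did. The myeloid list had a median of -0.34, so that its sign was opposite to that in Brg1-ECko LSECs. Its library medians were nevertheless above the control mean in both genotypes of this contrast. They were 0.34 to 1.18 in Chd4-ECko and 0.28 to 0.86 in Brg1/Chd4-ECdko LSECs, beside 0.05 to 0.66 in Brg1-ECko LSECs.

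**Figure D5:**
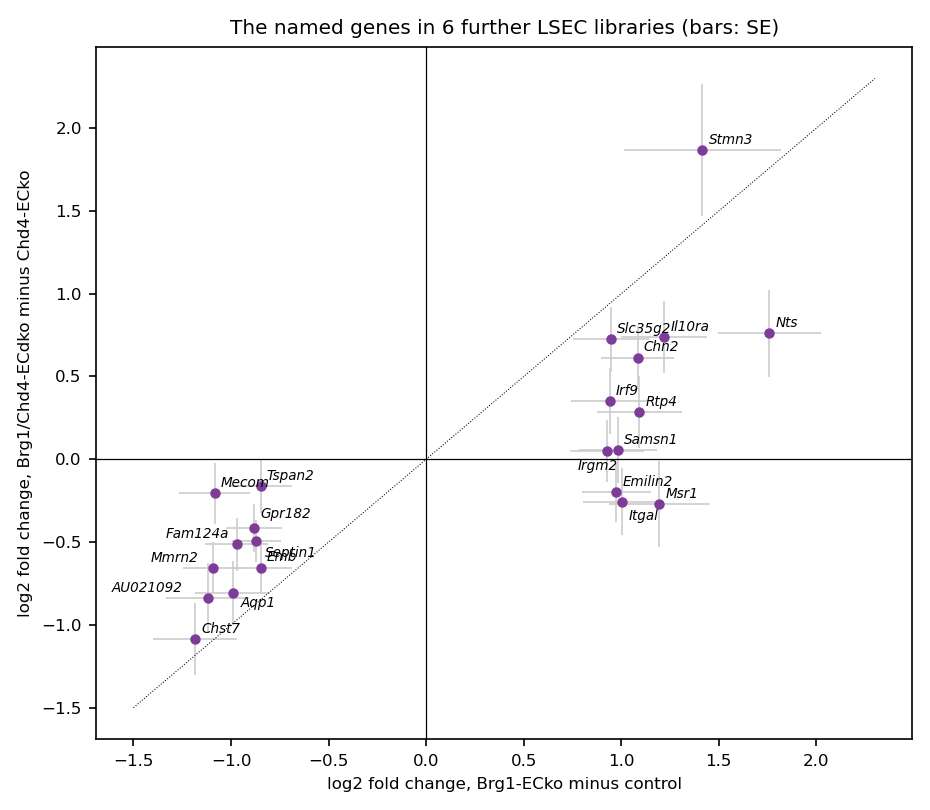
Log2 fold change ± SE of the named genes in Brg1-ECko against control LSECs (horizontal axis) and in Brg1/Chd4-ECdko against Chd4-ECko LSECs (vertical axis), with a dotted line where both are equal. The 10 lower genes lie below 0 on both axes, whereas Emilin2, Itgal and Msr1 lie on opposite sides of 0.

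The effect of the genotype in LSECs was compared with that in non-EC cells by an interaction contrast over 24 libraries and 13775 genes, of which 143 (1.04%) had an adjusted p under 0.05. The fractions were separated from the same livers, whereas this fit takes all libraries as independent. With a block for the replicate number in the fit 213 genes passed. All genotypes share this number, so the block does not mark which fractions came from the same liver, and that pairing was not modelled. With this block the adjusted p of the contrast moved from 0.0695 to 0.0335 for Septin1 and from 0.0656 to 0.0362 for Dll4. Mmrn2 differed by -1.18 ± 0.21 (adjusted p = 0.00920) and Nts by 1.46 ± 0.35 (adjusted p = 0.0456), though both were near 0 TPM in non-EC cells and the difference is largely the LSEC value. With a pseudocount of 0.1 TPM neither passed. Gpr182 differed by -1.5 ± 0.23 (adjusted p = 0.00577), made up of -0.88 in LSECs and 0.62 in non-EC cells (4.65 against 2.74 TPM). The 25 pan-endothelial genes had a median of 0.19 in that fraction, with 18 above 0, and the 21 sinusoidal genes 0.14. All genes had a median of 0.02 there. Both lists thus lay below 0 in the CD146+ fraction and above 0 in the other fraction of Brg1-ECko livers, and the part of cell capture in the LSEC values was not tested. Lists of other cell types also moved in non-EC cells, with medians of 0.94 for hepatoblast and -0.80 for erythroid genes.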

How the data were processed

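RNA-Seq was performed by the authors on CD146+ cells (LSECs) and the remaining non-EC cells of E12.5 livers, 24 libraries in all, from 4 genotypes with 3 embryos each. Per the paper's methods, reads were aligned to mouse genome GRCm39 in CLC Genomics Workbench after trimming of repeated guanines. The deposited table holds the authors' TPM for 25361 genes, which carry no depth, and 8 columns of the authors' group means that were not used. Columns of no sample numbered 0.

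Genes that reached 1 TPM in 3 or more of the 12 LSEC libraries were tested on log2(TPM + 1) in limma 3.58.1 (R 4.3.3) with a mean-variance trend, in 1 model with Benjamini-Hochberg adjustment over 13444 genes. Interaction contrasts used 24 libraries. P-values measure the spread between these libraries, which may be partly technical. Gene lists, members, tests and the named genes were chosen with earlier results of these data known. Named were Smarca4, Chd4, Mmrn2, Nts, Gpr182 and Mecom, every gene with an adjusted p under 0.05, the 10 higher and 10 lower genes with the smallest p, a mean of at least 5 TPM and no overlap of groups, of each list the 3 members of the highest level and the 2 with the largest change without overlap, the genes called without Brg1-ECko replicate 1, and 10 genes of the study's question. Other list members that are named were chosen after their values were seen. Some list members are not reported here by name.

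Alternatives were a pseudocount of 0.1 TPM, no filter, a minimum mean of 5 TPM, normalization by quantiles, rescaling without 13 mitochondrial or 31 hepatoblast genes, no trend, a replicate block, hepatoblast and sex covariates, a model of the 6 compared libraries and each library left out. In data simulated for this contrast with 200 of 13444 genes changed, 90% were recovered at a log2 fold change of 1.5 and 100% at 3, with 2 other genes called. These shares hold for the simulated settings only. They do not give the power of the real comparison, in which 3 genes had an adjusted p under 0.05. Promoters were read from RefSeq (GRCm38.p6) and figures drawn in matplotlib 3.10.9 (Python 3.11.15).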

Additional observations from a re-analysis of the deposited data

Results flagged for a closer look

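For 21 named genes the effect of the Brg1-ECko genotype differed between LSECs and non-EC cells. The test was the interaction contrast in limma at an adjusted p under 0.05, with all libraries taken as independent. Of all 13775 genes tested 143 (1.04%) passed it. The named genes were chosen in part by their LSEC change, which enters this contrast again, so their count is a description. Values are the log2 fold change in LSECs minus that in non-EC cells. Of the lower genes the differences were -1.18 for Mmrn2, -1.498 for Gpr182, -1.32 for Mecom, -1.18 for Chst7 and -1.21 for AU021092. Among endothelial genes they were -1.96 for Lyve1, -1.46 for Cldn5, -1.35 for Ephb4, -0.95 for Ets2 and -1.14 for Tcf7l1. Genes of the matrix and cell surface followed with -1.03 for Mmp14, -0.95 for Sparc, -1.02 for Emilin1, -1.23 for Anxa2, -0.997 for Ece1, -0.80 for Tnfrsf1a and -1.14 for Icam1. The cell cycle inhibitor gene Cdkn1c differed by -1.35. The difference was above 0 for Nts (1.46), Samsn1 (1.41) and Emilin2 (0.96). Several of these genes were near 0 in control non-EC cells. Their means there were 0.0822 TPM for Mmrn2, 0.0242 TPM for Chst7, 0.118 TPM for Cldn5 and 0.600 TPM for Mecom. AU021092 and Nts had 0 TPM. For these genes the difference is largely the LSEC value, and with a pseudocount of 0.1 TPM neither Mmrn2 nor Nts passed.

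Of the 21 genes 12 had an adjusted p under 0.05 in the non-EC fraction itself, all higher in Brg1-ECko livers, and 2 (Mmrn2 and Nts) had one in LSECs. The share of all genes that passed in the non-EC fraction is not given here, so its count has no background beside it. The non-EC change was the larger of both in 12 genes. Emilin1 had a log2 fold change of -0.04 in LSECs and 0.98 in non-EC cells, Tcf7l1 of -0.05 and 1.09, Tnfrsf1a of -0.14 and 0.66, and Cdkn1c of -0.28 and 1.07. Ephb4 (1.07), Lyve1 (1.13), Anxa2 (0.82), Icam1 (0.88), Mmp14 (0.72), Ece1 (0.70), Ets2 (0.55) and Gpr182 (0.62) were the other 8 with higher values in non-EC cells that passed the test there.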

How the results depend on the processing

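The number of DEGs was 2. It was also 2 with a pseudocount of 0.1 TPM or without the hepatoblast genes, and 3 with quantile normalization (Fam124a, Mecom and Mmrn2). It was 1 at a mean of at least 5 TPM, and 0 with no filter, without mitochondrial genes, without the trend, with the sex covariate, in the model of the 6 compared libraries, and without Brg1-ECko replicate 1 with the sex covariate, a setting chosen after seeing the data. With the hepatoblast covariate it was 5 (Chn2, Cthrc1, Nts, Pdlim3 and Stmn3). With 1 library left out it ranged from 0 to 4, and the 4 genes without Brg1-ECko replicate 3 were Fam124a, Mecom, Mmrn2 and Slc26a10. The cause was not tested. With the replicate block it was 5 (Chn2, Chst7, Mmrn2, Nts and S100a16), but same-numbered libraries had correlations of 0.06, -0.01 and 0.24 and so share only a number. Of 104 genes named in the text, 15 had a log2 fold change that changed sign under at least 1 alternative, as did 54 of the 144 tested genes of the naming rule. With the hepatoblast covariate the values were -0.13 for Chd4, -0.0533 for Afp, -0.15 for Aass, 0.000819 for Anxa2, 0.28 for Cd248, 0.11 for Cdkn1c, 0.0489 for Pecam1, -0.00896 for Prox1, 0.00858 for Tcf7l1 and 0.078 for Tek. Chd4 was at -0.0649 with the sex covariate and at -0.15 with that covariate and without Brg1-ECko replicate 1, where Rela was at -0.0069 and Kitl at -0.0023. With 1 library left out the ranges were -0.0821 to 0.24 for Chd4, -0.28 to 0.13 for Cd248, -0.37 to 0.0152 for Pecam1, -0.12 to 0.0515 for Emilin1, -0.16 to 0.0754 for Tcf7l1, -0.12 to 0.40 for Ifit1 and -0.0214 to 0.42 for Ifit3. Counted once per gene and alternative, 1780 fold changes kept their sign and their side of the threshold and 23 changed sign. Of the rest 16 gained and 36 lost an adjusted p under 0.05. Only Mmrn2, Nts and Septin1 passed in the main fit, so most of the 1780 belong to genes that had no call to lose. Depth is unknown, so counting error cannot be separated from the spread between embryos.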
